A study of Mus musculus with 16 samples.

Results

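Rragd and Flcn encode components of the machinery that places the growth-promoting kinase complex mTORC1 on the lysosome. They were measured by 3 of the 28898 probe sets that name a single gene, 2 for Rragd and 1 for Flcn, and are 2 of the 17097 genes tested. Every probe set annotated to either symbol was taken. Rragd was chosen by its large rise in cells without Tsc1, so its differences between the genotypes, and the differences between those differences, are given as a description with no p-value. Flcn was added by its role, with earlier results of the same arrays known.

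The 16 Affymetrix arrays fall into 6 groups of sorted naive mouse T cells, all on the C57BL/6 background. Tsc1-deficient and wild-type CD4 cells were either cultured for 4 h in plates coated with antibodies to CD3 and CD28 or left unstimulated (0 h), with 3 arrays in each group. Tsc1-deficient and wild-type CD8 cells were measured unstimulated, with 2 arrays in each group. Neither the Cre driver nor the form of the Tsc1 allele is given in the sources used here. In 1 place the labels' treatment text names mice deficient in another gene, HIF1a, while every title and genotype entry names Tsc1, which was followed. Separate mice are not stated for the arrays of any group, so p-values reflect only how these arrays spread, which may be technical spread.

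Tsc1 was measured first as a check of the labels. By its brightest probe set it averaged 6.48 ± 0.06 in deficient and 7.31 ± 0.07 in wild-type unstimulated CD4 cells (log2 signal, SD, n = 3 each), a difference of -0.83 (adjusted p = 3.77e-05, limma). In stimulated CD4 cells the difference was -1.06 (adjusted p = 4.63e-06), and in CD8 cells it was -0.55 (adjusted p = 0.00892). On the other 2 of its 3 probe sets the groups overlapped. The position of any of the 3 relative to the deletion is not known here. The lineage labels were matched by their markers: Cd8a averaged 11.61 in deficient and 11.51 in wild-type CD8 cells, against 5.58 and 6.42 in the unstimulated CD4 cells of these genotypes, and Cd4 averaged 4.80 and 4.35 in the CD8 cells, against 8.98 and 8.95 in the CD4 cells. The 3' minus 5' difference of the Gapdh control probe sets, a sign of RNA quality, was 0.96 on replicate 1 of the stimulated deficient CD4 cells and 0.64 on replicate 2 of the deficient CD8 cells, against 0.02 to 0.40 on the other 14 arrays. Where leaving out these 2 arrays changed a call printed here or moved a printed count over 1.5 times, the value without them is given, and the deficient CD8 group is then 1 array, assumed to vary like the other groups.

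The Rag proteins are small GTPases that work as pairs of a RagA or RagB with a RagC or RagD. When amino acids are plentiful the pair, held on the lysosome by the Ragulator complex, brings mTORC1 to the lysosomal surface, where the GTPase Rheb switches the kinase on. The TSC complex, which contains the Tsc1 protein, keeps Rheb inactive. Folliculin, the product of Flcn, acts with its partners Fnip1 and Fnip2 as a GTPase-activating protein for RagC and RagD. Folliculin and RagC or RagD also present the transcription factors TFEB, TFE3 and MITF to mTORC1, which phosphorylates them and keeps them out of the nucleus. RRAGD and FLCN are in turn known targets of these factors in human and mouse cells.

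The promoters of both genes are shown because TFEB, TFE3 and MITF bind E-boxes near the starts of their targets. Each sequence is taken from RefSeq (GRCm38.p6), runs 5' to 3' on the strand of the gene, and covers 250 bases before the annotated start and the first 50 bases of the gene. The Rragd promoter lies at chr4:32982748-32983047 on the plus strand and the Flcn promoter at chr11:59809990-59810289 on the minus strand. Capitals mark GGGTGGGG, a GC-rich box, in Rragd and TGACGTCA, the cAMP response element, in Flcn.
Rragd: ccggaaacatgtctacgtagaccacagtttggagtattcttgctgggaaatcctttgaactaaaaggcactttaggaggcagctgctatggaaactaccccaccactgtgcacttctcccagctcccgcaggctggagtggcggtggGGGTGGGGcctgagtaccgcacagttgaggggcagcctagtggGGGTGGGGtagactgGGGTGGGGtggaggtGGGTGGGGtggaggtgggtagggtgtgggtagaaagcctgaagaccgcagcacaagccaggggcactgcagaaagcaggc
Flcn: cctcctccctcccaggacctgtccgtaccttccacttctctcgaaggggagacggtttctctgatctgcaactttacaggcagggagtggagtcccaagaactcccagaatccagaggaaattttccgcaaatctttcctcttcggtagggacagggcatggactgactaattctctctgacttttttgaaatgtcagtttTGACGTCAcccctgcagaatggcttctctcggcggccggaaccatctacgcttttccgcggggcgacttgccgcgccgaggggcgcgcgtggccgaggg
Both strands were searched for these motifs and for the E-box core CACGTG, for TCACGTGA as the core of the CLEAR element bound by TFEB, which contains the E-box core, and for CATGTG as the M-box core bound by MITF. The motifs in capitals were added after the sequences had been read. Neither promoter holds the E-box, CLEAR or M-box core in this window. Of 32851 RefSeq mouse promoters of the same length, 7.15% hold CACGTG, 0.974% hold TCACGTGA and 14.2% hold CATGTG. The Rragd promoter holds GGGTGGGG 4 times between 30 and 103 bases before the start, a motif found in 9.99% of promoters. The Flcn promoter holds TGACGTCA once, 49 bases before the start, a motif found in 1.79% of promoters. These matches describe the letters and were not tested as binding sites.

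Rragd was high on every Tsc1-deficient array and low on every wild-type array. By its brighter probe set the log2 signal in unstimulated CD4 cells was 6.84, 6.77 and 7.01 on the deficient arrays, against 4.64, 3.72 and 3.65 on the wild-type arrays. In CD4 cells stimulated for 4 h it was 6.63, 6.84 and 6.73 on the deficient arrays, against 3.92, 3.72 and 3.58 on the wild-type arrays. In CD8 cells it was 6.93 and 6.33 on the deficient arrays, against 3.72 and 4.02 on the wild-type arrays. The lowest deficient array stood above the highest wild-type array across all 6 groups, and replicate 1 of the unstimulated wild-type CD4 cells was the one wild-type array set apart upward from the others of its group. Wild-type values lay a little above the median of the whole table, 3.36.

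**Figure D1:**
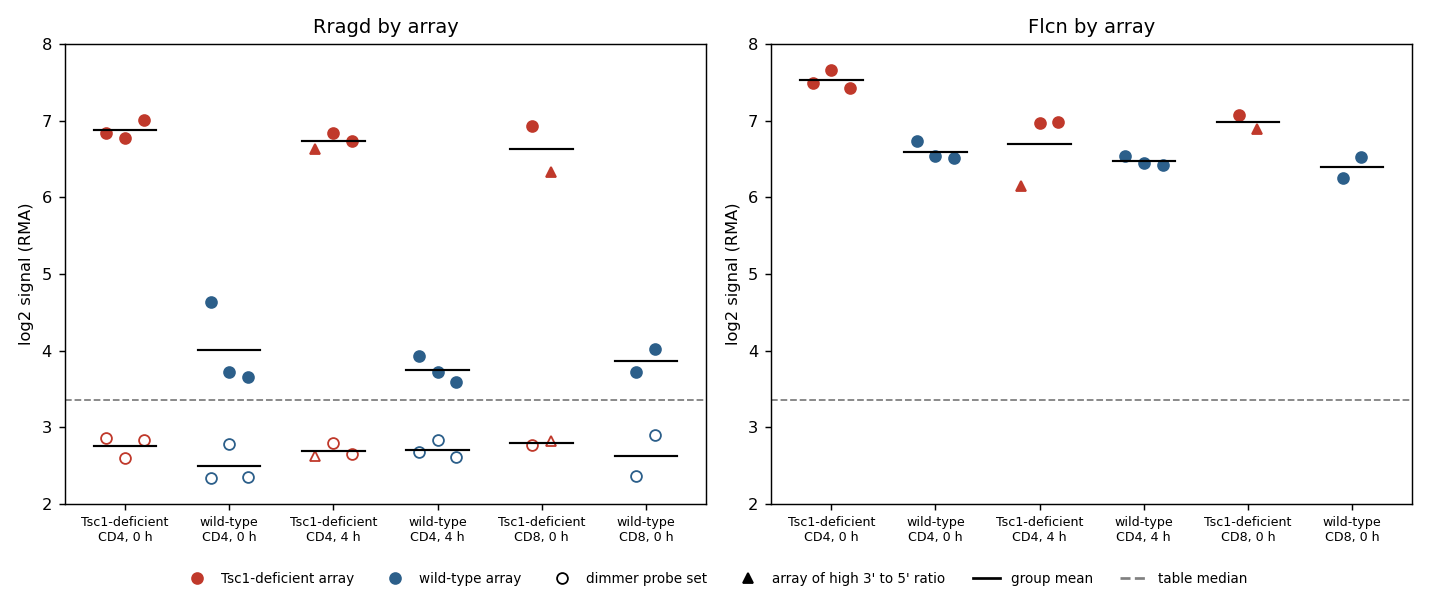
Log2 signal (RMA) of Rragd (left) and Flcn (right) on each of 16 arrays in 6 groups, with black lines for group means, open symbols for the dimmer Rragd probe set, triangles for the 2 arrays of high 3' to 5' ratio and a dashed line at the table median of 3.36. Filled Rragd symbols lie between 6.33 and 7.01 in deficient and between 3.58 and 4.64 in wild-type cells, while Flcn groups lie closer together and 1 stimulated deficient array, at 6.15, falls below the wild-type arrays.

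The 3 Rragd differences lay within each other's intervals. The mean difference, deficient minus wild-type, was 2.87 ± 0.21 on the log2 scale in unstimulated CD4 cells (SE, 95% interval 2.43 to 3.32, 7.32-fold). It was 2.99 ± 0.21 in stimulated CD4 cells (2.55 to 3.44, 7.97-fold) and 2.76 ± 0.26 in CD8 cells (2.22 to 3.31, 6.79-fold). Replicate 1 of the unstimulated wild-type CD4 cells moved the first of these values most, to 3.19 without it. The values in stimulated CD4 and CD8 cells were 3.05 ± 0.23 and 3.07 ± 0.31 without the 2 arrays of high 3' to 5' ratio. Among all genes in these comparisons, 3.96%, 5.59% and 3.64% were called higher in the deficient cells of unstimulated CD4, stimulated CD4 and CD8, and 1.87%, 3.86% and 2.18% lower, where called means an adjusted p under 0.05 in limma. Nothing is read for Rragd from these shares, since the comparison chose it.

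The dimmer Rragd probe set gave no such separation. It lay between 2.34 and 2.90 on all 16 arrays, below the table median throughout. Its means were 2.76 in deficient and 2.49 in wild-type unstimulated CD4 cells, 2.69 and 2.71 in the stimulated CD4 cells of these genotypes, and 2.79 and 2.63 in the CD8 cells. The differences were 0.27 ± 0.14, -0.02 ± 0.14 and 0.17 ± 0.18. The 2 probe sets of Rragd therefore disagree, and averaging them gave differences of 1.57, 1.49 and 1.46. Which transcripts each probe set covers is not known here.

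Stimulation left no called change in Rragd. The gene was chosen by its difference between the genotypes and not by this comparison, but both draw on the same arrays. The difference between 4 h and 0 h was -0.14 ± 0.21 in deficient CD4 cells (95% interval -0.58 to 0.31, adjusted p = 0.708) and -0.26 ± 0.21 in wild-type CD4 cells (-0.70 to 0.19, adjusted p = 0.426). The intervals leave room for a fall of up to 0.58 and 0.70. Without replicate 1 of the unstimulated wild-type cells the wild-type value was 0.059. In these comparisons 13.8% of all genes were called higher and 21.5% lower in deficient cells, and 12.8% higher and 19.1% lower in wild-type cells. The response of the deficient cells minus that of the wild-type cells was 0.12 ± 0.30 (-0.51 to 0.75), a description only.

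No difference between the lineages was called for Rragd. The difference, CD8 minus CD4, was -0.24 ± 0.24 in unstimulated deficient cells (95% interval -0.74 to 0.26, adjusted p = 0.66) and -0.13 ± 0.24 in wild-type cells (-0.63 to 0.37, adjusted p = 0.865). The sign of neither value is settled. Without replicate 2 of the deficient CD8 cells, which leaves 1 array there, the first was 0.061, and leaving out single arrays took the second between -0.31 and 0.19. The share of all genes called in either direction was 6.68% in deficient and 5.04% in wild-type cells. The genotype difference in CD8 cells minus that in CD4 cells was -0.11 ± 0.33 (-0.81 to 0.60). In order of mean level, deficient unstimulated CD4 cells came first, then deficient stimulated CD4, deficient CD8, wild-type unstimulated CD4, wild-type CD8 and wild-type stimulated CD4 cells. Neighbours in that order overlapped, except at the step between the genotypes.

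Flcn was higher in the deficient cells at rest, by a smaller step. In unstimulated CD4 cells its log2 signal was 7.49, 7.66 and 7.43 on the deficient arrays, against 6.73, 6.54 and 6.52 on the wild-type arrays. The groups did not overlap, and the difference was 0.93 ± 0.17 (95% interval 0.57 to 1.29, 1.91-fold, adjusted p = 0.00287). In CD8 cells it was 7.08 and 6.89 on the deficient arrays, against 6.26 and 6.52 on the wild-type arrays. These groups did not overlap either, which is easily met by 2 arrays against 2, and the share of all genes without overlap is not given. The difference of 0.59 ± 0.21 (0.15 to 1.03, 1.51-fold) missed the threshold (limma, unadjusted p = 0.0116, adjusted p = 0.115). Without the 2 arrays of high 3' to 5' ratio it was 0.69 (adjusted p = 0.0116), a value that rests on 1 deficient CD8 array and takes its spread from the other groups.

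After 4 h of stimulation the Flcn groups overlapped. The signal was 6.15, 6.97 and 6.98 on the deficient CD4 arrays, against 6.54, 6.45 and 6.42 on the wild-type arrays. The low deficient value is that of replicate 1, the array with the highest 3' to 5' Gapdh difference. The difference over all arrays was 0.23 ± 0.17 (95% interval -0.13 to 0.59, adjusted p = 0.503). Without the 2 arrays of high ratio it was 0.50 ± 0.11 (0.28 to 0.73, adjusted p = 0.00832), so the call for stimulated cells turns on that array.

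Flcn fell with stimulation in the deficient cells. The 4 h arrays, at 6.15, 6.97 and 6.98, all lay below the 0 h arrays, at 7.43 to 7.66, and the difference was -0.83 ± 0.17 (95% interval -1.19 to -0.47, adjusted p = 0.00078). Without the 2 arrays of high ratio it was -0.55 (adjusted p = 0.000757). In wild-type cells the difference was -0.13 ± 0.17 (adjusted p = 0.661). The test of the difference between these responses gave -0.70 ± 0.24 (-1.21 to -0.19, unadjusted p = 0.010, adjusted p = 0.215), and -0.43 (adjusted p = 0.168) without the 2 arrays. A difference between the genotypes in the response of Flcn was therefore not called, and 1.2% of all genes were.

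**Figure D2:**
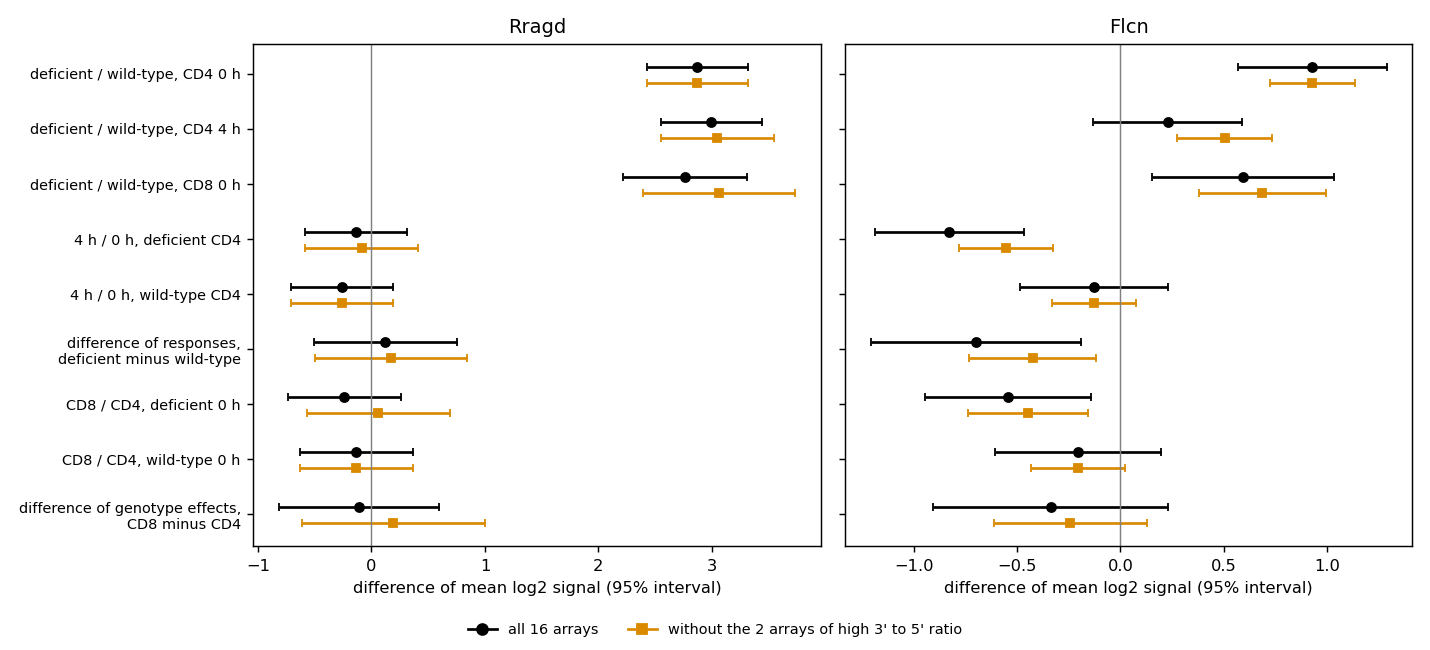
Differences of mean log2 signal with 95% intervals for Rragd (left) and Flcn (right) in 9 comparisons, from all 16 arrays (black) and without the 2 arrays of high 3' to 5' ratio (orange), each named as the first group minus the second. The Rragd genotype differences lie at 2.76 to 2.99 while its other intervals cross 0, and the Flcn difference in stimulated CD4 cells is 0.23 with and 0.50 without those arrays.

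Between lineages Flcn was -0.54 ± 0.19 in deficient CD8 minus CD4 cells (95% interval -0.95 to -0.14, adjusted p = 0.107) and -0.21 ± 0.19 in wild-type cells (adjusted p = 0.707). The genotype difference in CD8 cells minus that in CD4 cells was -0.34 ± 0.27 (adjusted p = 0.788), where 0.117% of all genes were called. By mean level deficient unstimulated CD4 cells stood first, followed by deficient CD8, deficient stimulated CD4, wild-type unstimulated CD4, wild-type stimulated CD4 and wild-type CD8 cells. Only the first neighbours in that order did not overlap.

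The partners of Rragd and Flcn differed between the genotypes by smaller amounts than Rragd. Rragd was chosen for its large rise, so nothing is read from that contrast. Rragc, the close relative of Rragd that takes the same place in the Rag pair, averaged 9.16 in deficient and 8.62 in wild-type stimulated CD4 cells, a difference of 0.54 ± 0.12 (adjusted p = 0.00765). In unstimulated CD4 cells it was 0.39 ± 0.12 (adjusted p = 0.0644) and in CD8 cells 0.41 ± 0.15 (adjusted p = 0.119). The arrays overlapped in none of the 3, a description for which no share over all genes is given. Fnip1, a binding partner of folliculin, averaged 9.02 in deficient and 8.17 in wild-type stimulated CD4 cells (0.85 ± 0.16, adjusted p = 0.00289). It averaged 8.22 in deficient and 7.28 in wild-type CD8 cells (0.94 ± 0.20, adjusted p = 0.00987), a call lost without the 2 arrays of high ratio (0.65, adjusted p = 0.0653) and without replicate 1 of the wild-type CD8 cells (0.77, adjusted p = 0.143). In unstimulated CD4 cells the Fnip1 difference was 0.54 ± 0.16 (adjusted p = 0.0652). With the 2 arrays of high ratio left out, Fnip1 (adjusted p = 0.0174) and Rragc (adjusted p = 0.0107) passed the test in unstimulated CD4 cells. Neither array belongs to those groups, so these differences stayed the same and only the spread estimated over all groups changed. Rragc in CD8 cells also moved below the threshold, but there on 1 deficient array. Unlike the fall of Flcn, stimulation raised Fnip1 in deficient cells by 0.72 ± 0.16 (adjusted p = 0.00187). Fnip1 was also higher after stimulation in wild-type cells, at an unadjusted limma p under 0.05. It was called there without the 2 arrays of high ratio but not with all arrays. Fnip2, the second partner, differed by 0.05 to 0.37 between the genotypes and passed no test over all arrays. In stimulated CD4 cells it was higher at an unadjusted limma p under 0.05, and was called without replicate 3 of the deficient group. Stimulation raised Fnip2 by 0.75 in deficient cells (adjusted p = 0.000121) and by 0.43 in wild-type cells (adjusted p = 0.013). The wild-type means, 3.20 at 4 h and 2.76 at 0 h, lie below the table median, and that call was lost without replicate 2 at 0 h (0.37, adjusted p = 0.0654) or replicate 1 at 4 h (0.35, adjusted p = 0.0711). Rraga and Rragb were not analysed here.

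The 8 lists set around Rragd and Flcn hold 86 genes, of which 69 were measured. The counts below leave out Rragd, Flcn and Tsc1, and are read against the background shares given above. Of the 6 measured genes of the Rag and Ragulator list, 1 was called higher in unstimulated CD4 cells, 1 in stimulated CD4 cells and 0 in CD8 cells, and 0 lower in each. At an unadjusted limma p under 0.05 these counts were 3, 1 and 2 higher and 0 lower, and without the 2 arrays of high ratio 3, 1 and 2 were called higher. The first was Lamtor1, the Ragulator subunit that anchors the complex in the lysosomal membrane, at 0.39 ± 0.09 (adjusted p = 0.0139), a call lost when replicate 1 of the deficient or replicate 2 or 3 of the wild-type group was left out, where adjusted p was 0.0603 to 0.0733. With stimulation 4 of the 6 were called lower in each genotype, and 1 was called higher in deficient cells. Among the lower were Lamtor4 at -1.42 ± 0.10 in deficient cells and -1.23 ± 0.10 in wild-type cells and Lamtor2 at -1.09 ± 0.12 and -0.78 ± 0.12. Without replicate 1 of the wild-type cells at 0 h or at 4 h, 2 were called lower there. The wild-type calls of Lamtor1 and Lamtor3 were then lost (adjusted p = 0.0595 to 0.0749).

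Of the 9 measured genes of GATOR and KICSTOR, the complexes that pass amino acid signals to the Rag proteins, 0 were called higher and 1 lower in unstimulated deficient CD4 cells. In stimulated CD4 cells 2 were higher and 1 lower, and in CD8 cells 0 were called in either direction, against 2 higher and 1 lower at an unadjusted p under 0.05. With the 2 arrays of high ratio left out the counts were 2 higher and 1 lower in unstimulated and 0 higher and 1 lower in stimulated CD4 cells. The 2 higher genes in stimulated cells were Wdr24 and Wdr59, both GATOR2 subunits, and each call was lost under any 1 of 4 of the 6 compared arrays, replicate 1 of the deficient group among them (adjusted p = 0.138 and 0.0705 without it). The lower gene was Itfg2, a KICSTOR subunit, at -0.50 (adjusted p = 0.0203) unstimulated and -0.41 (adjusted p = 0.042) stimulated, and each of these calls was lost when any 1 of 5 of the 6 compared arrays was left out. Of 6 measured genes for amino acid sensors, 3, 2 and 3 were called higher in unstimulated CD4, stimulated CD4 and CD8 cells, and 0 lower. Castor2, a relative of the arginine sensor Castor1, averaged 6.47 in deficient and 4.78 in wild-type CD8 cells, a difference of 1.68 ± 0.16 (adjusted p = 7.27e-06). Its difference was 0.80 ± 0.13 in unstimulated CD4 cells (adjusted p = 0.000955) and 0.50 ± 0.13 in stimulated CD4 cells (adjusted p = 0.0198), where 3 of the arrays left out singly raised the adjusted p to between 0.058 and 0.0702. The other genes called were Sesn1 and Sesn2, which encode sestrins, both in unstimulated CD4 and CD8 cells and Sesn2 in stimulated CD4 cells. Sesn1 differed by 0.61 (adjusted p = 0.0232) and 0.71 (adjusted p = 0.0328) in unstimulated CD4 and CD8 cells, and Sesn2 by 0.59 (adjusted p = 0.033) and 0.80 (adjusted p = 0.0202). Each of these calls was lost when any 1 of 5 of the 6 CD4 arrays, or any of the 4 CD8 arrays, was left out. With single arrays left out 1 or 2 sensors were called higher in unstimulated CD4 cells and 1 in CD8 cells. In CD8 cells 2 were higher and 1 lower without the 2 arrays of high ratio.

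Of 7 measured genes of the TSC complex, Rheb and mTORC1, 0, 0 and 1 were called higher and 1, 1 and 1 lower in unstimulated CD4, stimulated CD4 and CD8 cells. Rhebl1, a relative of Rheb, was the lower gene each time, at -1.07 ± 0.13 (adjusted p = 4.25e-05), -1.47 ± 0.13 (adjusted p = 2.75e-06) and -0.88 ± 0.15 (adjusted p = 0.00246). Rptor, the mTORC1 subunit that contacts the Rag pair, averaged 6.90 in deficient and 6.20 in wild-type CD8 cells (0.70 ± 0.11, adjusted p = 0.000778). Rptor was 0.03 in unstimulated and 0.12 in stimulated CD4 cells, and passed neither test.

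The transcripts of the factors known to target Rragd and Flcn did not pass a genotype test in limma. Of Tfeb, Tfe3, Mitf and Tfec, 0 of 4 were called in unstimulated CD4, stimulated CD4 or CD8 cells, and 0, 1 and 0 had an unadjusted p under 0.05, the 1 being Mitf. Tfeb differed by 0.18, 0.10 and -0.08, Tfe3 by 0.14, -0.15 and 0.15, and Mitf by -0.32, -0.49 and -0.34, with SEs of 0.09 to 0.27. The arrays measure transcripts and do not report where these proteins are in the cell. Stimulation raised Tfe3 by 1.03 ± 0.09 in deficient cells (adjusted p = 6.09e-08) and by 1.32 ± 0.09 in wild-type cells (adjusted p = 4.4e-09). Mitf was called lower with stimulation in deficient cells. That call was lost without replicate 1 or 2 at 0 h or replicate 2 or 3 at 4 h, where the difference was -0.38 to -0.68.

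Known targets of TFEB and TFE3, mostly lysosomal genes, were often higher in the deficient cells. Of 22 measured, 16 were called higher in unstimulated CD4 cells, 15 in stimulated CD4 cells and 12 in CD8 cells, against the shares of 3.96%, 5.59% and 3.64% among all genes. By limma 0 were called lower, and 0 were lower at an unadjusted p under 0.05. With single arrays left out 8 to 13 were called higher in unstimulated CD4 cells, 13 to 16 in stimulated CD4 cells and 4 to 9 in CD8 cells, with 0 lower. The shares above belong to the fit of all 16 arrays, and none is given for these smaller fits. The lowest counts were 8 without replicate 3 of the wild-type unstimulated CD4 cells, and in CD8 cells 4 without either wild-type replicate and 6 without replicate 1 of the deficient cells. Their median differences over all arrays were 0.43, 0.51 and 0.50, against medians of 0.01, -0.00 and -0.01 over all genes. Hexa, a subunit of the lysosomal enzyme beta-hexosaminidase, averaged 9.43 in deficient and 8.48 in wild-type unstimulated CD4 cells, a difference of 0.95 ± 0.10 (adjusted p = 1.41e-05), and differed by 0.93 in stimulated CD4 and 1.16 in CD8 cells. Ctsd, the protease cathepsin D, differed by 0.60, 0.65 and 1.14, and Atp6v0d1, a subunit of the proton pump that acidifies lysosomes, by 0.78, 0.50 and 0.89. Gpnmb, a glycoprotein of lysosomes and melanosomes, was called in CD4 cells, at 1.39 unstimulated and 1.16 stimulated, and was 0.25 in CD8 cells (adjusted p = 0.651). Gla, the lysosomal alpha-galactosidase, was 0.82 in unstimulated and 1.78 in stimulated CD4 cells, the first a call lost when any 1 of 4 arrays was left out (adjusted p = 0.0687 to 0.0973). Over all 8 lists 23, 24 and 19 genes were called in either direction. The first count was 11 without replicate 3 of the wild-type group and 15 without replicate 1 or 3 of the deficient group. The CD8 count was 12 without replicate 1 of the deficient group, and 8 and 9 without replicate 1 and replicate 2 of the wild-type group.

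Stimulation moved most of these targets the other way. In deficient cells 12 of the 22 were called lower and 1 higher, and in wild-type cells 13 lower and 2 higher, with median differences of -0.31 and -0.56. Sgsh, a heparan sulfate-degrading enzyme, fell by 2.54 in deficient and 2.34 in wild-type cells, and Naglu, of the same pathway, fell by 2.31 and 2.51. Hexa fell by 1.11 and 1.09. For Rragd over the same hours the differences were -0.14 and -0.26, and for Flcn -0.83 and -0.13, as given above. In the promoter window 11 of the 19 target genes with a RefSeq promoter (57.9%) hold CACGTG, against 8.09% of 27025 genes, and 7 (36.8%) hold TCACGTGA, against 1.12%. The list is of known targets of factors that bind these motifs, so such shares are partly built into it and test nothing. The promoters of Rragc and Fnip1 hold CACGTG and that of Fnip2 does not.

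Of 10 genes known as MITF targets in melanocytes, 1 was called higher in each genotype comparison. It was Trpm1, a cation channel gene, in unstimulated CD4 and in CD8 cells. Trpm1 averaged 6.24 in deficient and 3.85 in wild-type unstimulated CD4 cells (2.39 ± 0.16, adjusted p = 1.01e-07), and 9.25 in deficient and 6.14 in wild-type CD8 cells (3.11 ± 0.19, adjusted p = 6.49e-08). In stimulated CD4 cells Trpm1 was 0.41 ± 0.16 (adjusted p = 0.121), and the gene called there was Rab27a, which moves secretory vesicles, at 0.41 ± 0.11 (adjusted p = 0.0258). That call was lost without replicate 1 of the deficient group (0.32, adjusted p = 0.097) and without replicate 1 or 3 of the wild-type group (adjusted p = 0.134 and 0.0612), and without the 2 arrays of high ratio 0 of the 10 were called in stimulated cells. The pigment genes Tyr, Tyrp1, Dct and Mlana lay below the table median in every group. Pmel, also a pigment gene, did not, and averaged 4.92 in deficient and 4.63 in wild-type unstimulated CD4 cells. Stimulation took Trpm1 to 3.66 in deficient cells, against 6.24 in unstimulated ones, while Rragd averaged 6.74 against 6.87.

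**Figure D3:**
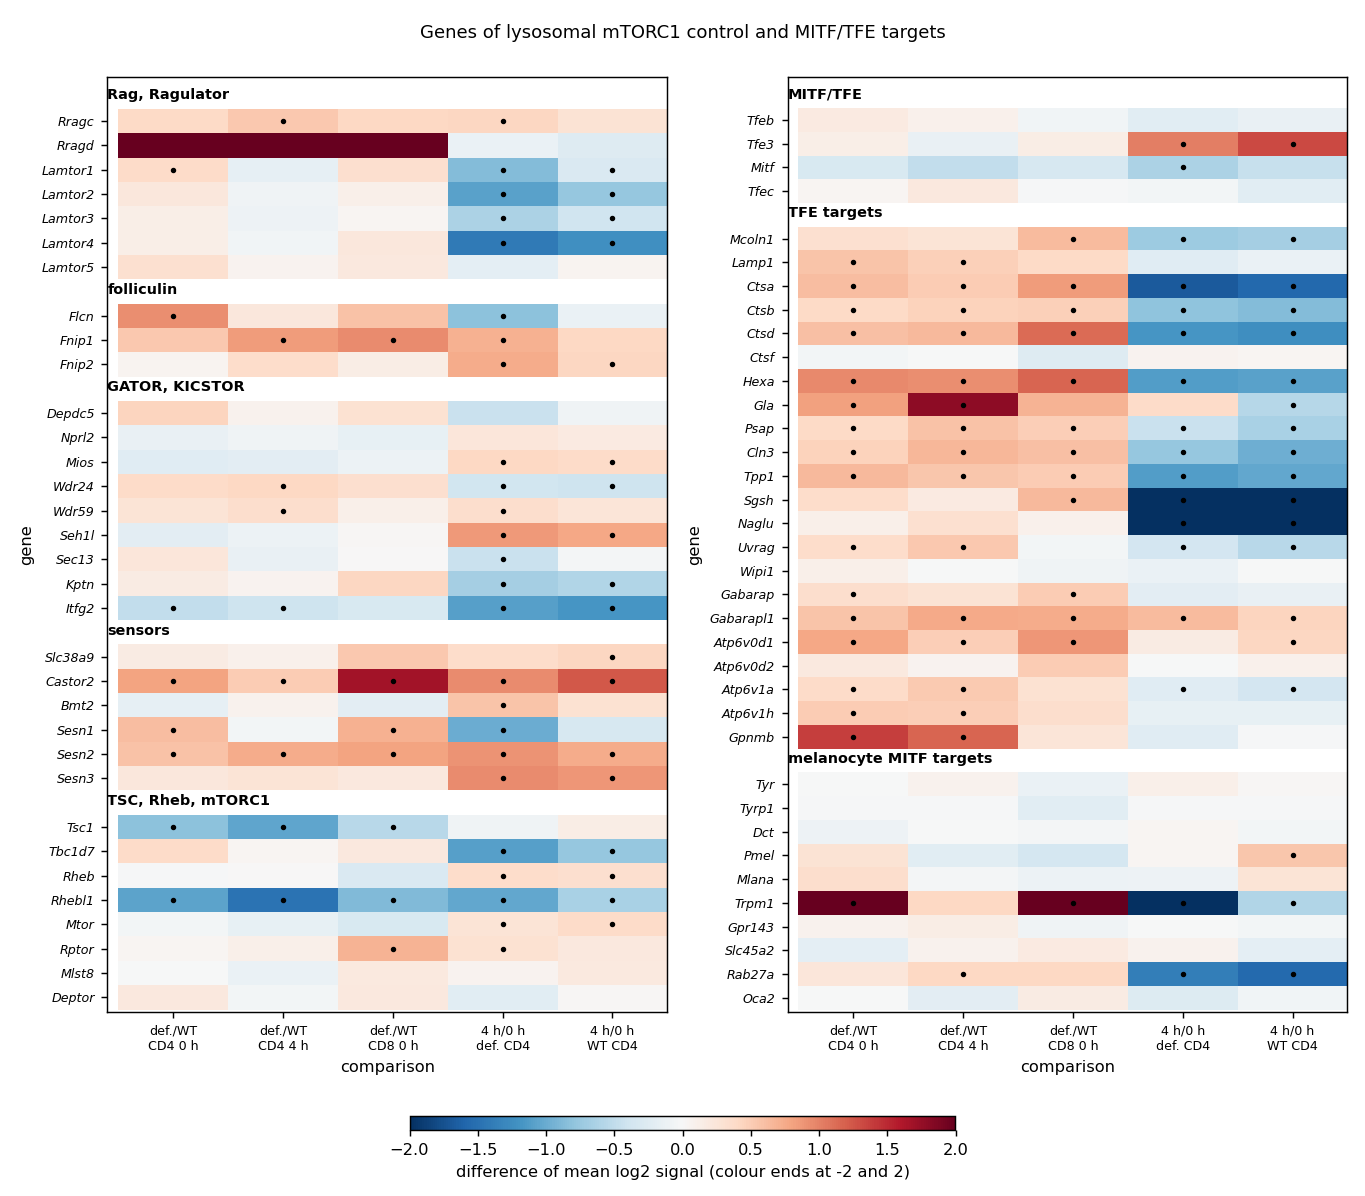
Differences of mean log2 signal (colour, red for higher in the first-named group) for the measured genes of 8 lists in 5 comparisons, def. for Tsc1-deficient and WT for wild-type, with a black dot where adjusted p is under 0.05; Rragd has no test between the genotypes. Of 22 TFE targets, 16, 15 and 12 carry a dot for higher in the deficient cells, and 12 and 13 for lower after stimulation of deficient and wild-type cells.

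Over the 6 group means, each gene first centred on its own mean, the 9955 genes with a group mean above the table median were ranked by their root-mean-square distance from Rragd. The nearest were Ngp at 0.34, Pcsk1 at 0.35, Acot7 at 0.39, Camp at 0.44 and Ube2c at 0.50 on the log2 scale. Ngp and Camp encode granule proteins of neutrophils, Pcsk1 a prohormone protease, Acot7 an acyl-CoA thioesterase and Ube2c a ubiquitin-conjugating enzyme of the cell cycle. Acot7 averaged 7.54 in deficient and 5.24 in wild-type unstimulated CD4 cells. Pcsk1 (2.82 to 3.20) and Camp (2.89 to 3.34) lay below the table median of 3.36 in every wild-type group, so they entered the ranking by their deficient groups. Ube2c was 2.61 to 3.42 in the wild-type groups. For Flcn the nearest were Msmo1 at 0.096, a sterol synthesis enzyme, Clstn3 at 0.106, Padi1 at 0.107, P2rx4 at 0.109, an ATP-gated channel, and Snx5 at 0.114, an endosomal sorting protein. Padi1 averaged 3.47 in deficient unstimulated CD4 cells and 2.33 to 2.64 in the other groups, so it entered by that group alone. Clstn3 was 3.08 to 3.24 in the wild-type groups, also below the table median. Rragd and Flcn themselves lay 1.17 apart. These distances describe 6 group means of 16 arrays that all these genes share.

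Genes of neutrophils moved with genotype beside Rragd. All 7 marker genes of that list were measured, and in unstimulated CD4 cells Ngp, in stimulated CD4 cells Ngp, Camp, S100a8 and S100a9, and in CD8 cells 0 of the 7 were called higher, with 0 lower. At an unadjusted limma p under 0.05, for which no share over all genes is given, 6, 5 and 4 of the 7 were higher and 0 lower. The log2 of their summed signal was 8.11 to 10.3 on deficient and 6.63 to 8.07 on wild-type unstimulated CD4 arrays, 8.47 to 10.2 and 6.19 to 7.04 on the stimulated CD4 arrays, and 8.64 to 9.78 and 6.76 to 8.30 on the CD8 arrays. Of the 7, 1, which was Elane, had a mean below the table median in each deficient group, against 4, 4 and 3 in wild-type unstimulated CD4, stimulated CD4 and CD8 cells. The part of these genes in the Rragd and Flcn values was not tested. Of 8 monocyte, macrophage or dendritic markers, 0, 3 and 0 were called higher in unstimulated CD4, stimulated CD4 and CD8 cells, and 0 lower. The 3 were Cd68, Lyz2 and Mpeg1 at 0.76, 1.18 and 0.83. The rest of the list was mixed in stimulated CD4 cells. Csf1r (3.60 in deficient against 3.72 in wild-type), Adgre1 (3.33 against 3.56) and Itgax (2.97 against 3.12) had lower means in deficient cells. Itgam (2.313 against 2.306) and Cd14 (3.12 against 2.89) had higher ones. Of 4 measured B cell markers, Cd79b was called higher, at 0.63 in unstimulated CD4 cells (adjusted p = 0.0448) and 0.99 in CD8 cells (adjusted p = 0.0108). The others were not called. In unstimulated CD4 cells Cd79a (4.56 in deficient against 4.70 in wild-type) and Pax5 (2.41 against 2.51) had lower means in deficient cells, and Ms4a1 (5.86 against 5.58) a higher one. In CD8 cells Pax5 was lower (2.45 against 2.56), while Cd79a (4.71 against 4.26) and Ms4a1 (5.74 against 5.56) were higher. Called lower in deficient unstimulated CD4 cells were Cd8a (-0.84) and Runx3 (-0.55), both CD8 lineage genes. In stimulated CD4 cells the T cell genes Cd3g (-0.83) and Cd2 (-0.85) and the naive T cell gene Lef1 (-0.83) were called lower. Their part in the values above was not tested either. In sorted cells measured in bulk, a change in the share of a cell type and a change in RNA per cell cannot be told apart.

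**Figure D4:**
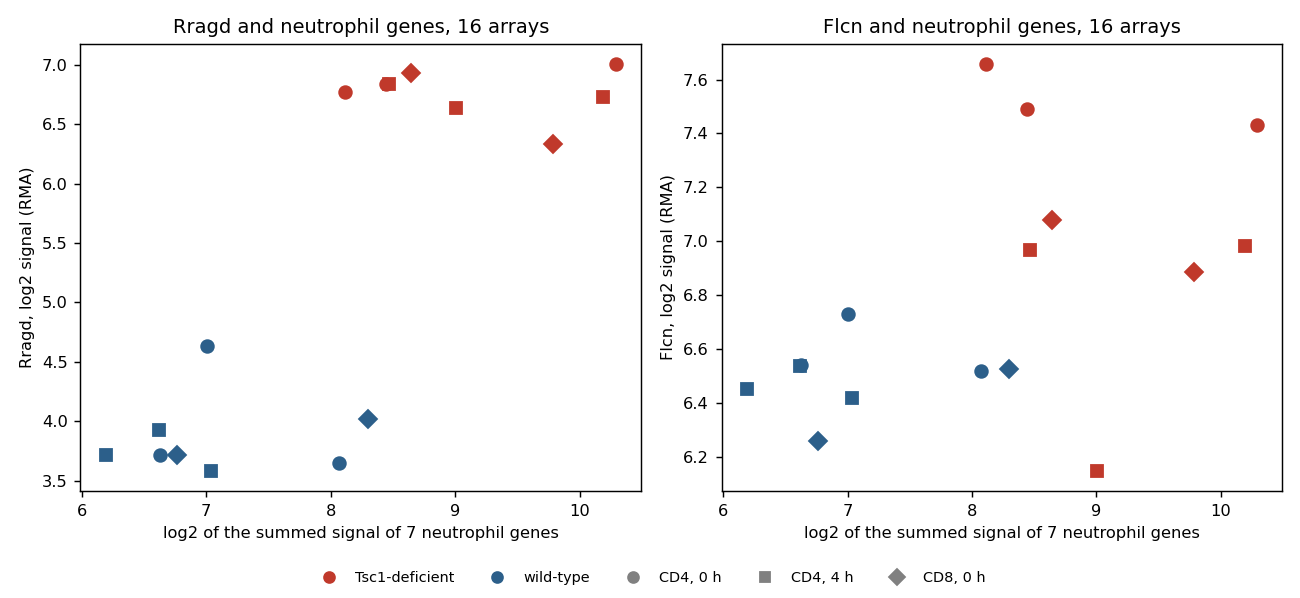
Log2 signal of Rragd (left) and Flcn (right) against the log2 of the summed signal of 7 neutrophil genes on each of 16 arrays, red for Tsc1-deficient and blue for wild-type cells, with the shape giving lineage and time. Deficient arrays have sums of 8.11 to 10.3 and wild-type arrays 6.19 to 8.30.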

How the data were processed

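The files hold log2 signals of 45141 probe sets on 16 arrays, made by the authors before deposit with RMA in Partek 6.5, per the submitters' processing notes, and used here as deposited. Raw scans were not used. Groups follow the labels' genotype, lineage and stimulation. Of the probe sets, 28898 name 1 gene in the platform annotation, 551 name several, 15588 name none and 104 are controls. For each of 17097 genes the probe set with the highest mean was kept, and all probe sets of Rragd and Flcn were also examined. One model with a mean per group was fitted to all 16 arrays in limma 3.58.1 (R 4.3.3), with 10 residual degrees of freedom, with Benjamini-Hochberg adjustment over all genes of each comparison. A gene was called at an adjusted p under 0.05. The number of arrays limits the precision. Replicate arrays correlated at 0.987 to 0.996.

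Named genes are Rragd, Flcn, Tsc1, the Rag, folliculin partner and MITF/TFE genes, and from each list up to 4 called genes per comparison by absolute change, not all of which are printed, besides 5 nearest genes by distance. Tfec and the neutrophil and lineage markers are named as members of their lists. The members, lists and tests were chosen with earlier results of these data known. Promoters came from a RefSeq table (GRCm38.p6). The 24 results on Rragd, Flcn and the counts over the lists were recomputed with the probe sets of a gene averaged, with every probe set tested, with dim genes left out, after quantile normalization, after centring arrays on their median, with a robust trended prior, with arrays weighted, with only the compared groups, without the 2 arrays of high 3' to 5' Gapdh difference, and without each array singly. A fit with adjacent title serials as a block was added after the data were seen. The limma pipeline was tested on simulated data. Plots used matplotlib 3.10.9 (Python 3.11.15).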

Additional observations from a re-analysis of the deposited data

Results flagged for a closer look

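The response to stimulation differed between the genotypes for 2 genes of the lists, by the test of the difference itself in limma. Lamtor1, the membrane anchor of Ragulator, averaged 9.94 at 4 h and 10.80 at 0 h in deficient cells and 10.12 and 10.42 in wild-type cells, and the response of deficient minus wild-type cells was -0.57 ± 0.13 (adjusted p = 0.0373). Without the 2 arrays of high 3' to 5' ratio it was -0.55 (adjusted p = 0.0315), and with arrays of adjacent title serials as a block it was -0.57 (adjusted p = 0.119), a call lost. Trpm1 averaged 3.66 at 4 h and 6.24 at 0 h in deficient cells and 3.25 and 3.85 in wild-type cells, a difference of responses of -1.98 ± 0.22 (adjusted p = 0.000396). Without those 2 arrays it was -1.93 (adjusted p = 0.00307), and with the block -1.98 (adjusted p = 0.0043).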

How the results depend on the processing

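Of 364 values under alternatives, over 24 results, 341 were taken as the same. For a difference this meant that it kept its direction and its side of the threshold, or moved by less than the spread between replicates. Counts were judged by the ratio of the larger to the smaller count instead. Averaging the 2 probe sets of Rragd gave genotype differences of 1.57, 1.49 and 1.46 in unstimulated CD4, stimulated CD4 and CD8 cells, by construction since the dimmer one hardly differs, and 0.0019 between wild-type CD8 and CD4 cells. Without the 2 arrays of high 3' to 5' ratio the Flcn genotype difference was 0.50 (adjusted p = 0.00832) in stimulated CD4 and 0.69 (adjusted p = 0.0116) in CD8 cells, and the Rragd difference between deficient CD8 and CD4 cells was 0.061, the last 2 values resting on 1 deficient CD8 array assumed to vary like the other groups. With the compared groups alone in the fit, which leaves fewer arrays, 7 genes of the lists were called between genotypes in CD8 cells, against 19, and Flcn between deficient CD8 and CD4 cells passed at -0.54 (adjusted p = 0.047).

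Leaving out single arrays gave Rragd 2.70 to 3.19 for genotype in unstimulated CD4 cells, -0.43 to 0.059 for stimulation of wild-type cells and -0.19 to 0.30 for the difference of the responses. For lineage it gave -0.54 to 0.061 in deficient cells, -0.31 to 0.19 in wild-type cells and -0.43 to 0.19 for the difference of the genotype effects. For Flcn it gave 0.089 to 0.50 for genotype in stimulated CD4 cells. The genes of the lists called between genotypes numbered 23 in unstimulated CD4 cells and 11 to 17 with an array left out. Replicates 1 and 3 of the deficient group each left 15, and replicate 3 of the wild-type group left 11. In CD8 cells they numbered 19 and 8 to 14, with 12 without deficient replicate 1, 8 without wild-type replicate 1 and 9 without wild-type replicate 2. Other causes were not tested.

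The CD4 titles end in serials, and adjacent ones fall on a 0 h and a 4 h array of 1 genotype, without a statement that they mark a shared mouse. Deviations from the group means correlated at 0.030 to 0.077 within the 6 pairs, and each of the 6 0 h arrays correlated best with its own pair, a hint from the data only. With these pairs as a replicate block, chosen after seeing the data, Flcn gave -0.83 (adjusted p = 0.00102) with stimulation of deficient cells and -0.70 (adjusted p = 0.193) for the difference of the responses, and Rragd -0.14 (adjusted p = 0.55) and, in wild-type cells, -0.26 (adjusted p = 0.217). Over all genes the block gave 126 calls for the difference of the responses, against 206, and the Lamtor1 call was lost (adjusted p = 0.119). Wild-type Rragd lies near the table median, where signal over background limits the precision of its folds.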
